A study of Danio rerio with 24 samples.

Results

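The mitochondrial carrier family of the zebrafish liver was described here through all genes whose symbol begins with slc25a and a number. The files list 59 such genes among 32520, of which 29201 carry a symbol. A gene was kept as a member where it had at least 10 estimated counts in at least 6 of 24 fish, which left 45 members and set 14 aside. The 45 members cover 37 of the 42 carrier numbers in the files, and 10 of them share a symbol with another member, so those are given with their Ensembl identifier. All 45 passed the expression filter of the statistical test, and the rule used no difference between groups. Females alone would have missed the minimum for slc25a24, SLC25A37 and SLC25A29 (ENSDARG00000057352), with 10 counts or more in 2, 4 and 5 females.

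Carriers of this family are small proteins that span the inner mitochondrial membrane and exchange one metabolite for another, for instance ADP for ATP or malate for 2-oxoglutarate. They connect the citric acid cycle, fatty acid oxidation, the urea cycle and the use of amino acids in the mitochondrial matrix with the same pathways in the cytosol, and the liver depends on many of them. A few members sit elsewhere, such as SLC25A17 in the peroxisome, and for several members the substrate is unknown. The roles given below are known mostly from mammals and yeast.

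The livers came from adult zebrafish of the ABTL strain. NF-control fish were fed normally and kept untrained, OF-control fish were overfed with 9 mL of shrimp per fish, NF-training fish were fed normally and swam in training sessions, and OF-training fish were both overfed and trained. Training ran over 20 sessions in 8 weeks, the fish were kept 6 to a tank, and the livers were taken after an overnight fast. Each group held 6 fish, 3 females and 3 males, which gives 8 cells of group and sex. The labels do not name the tank of a fish, so a group may have been 1 tank, and differences between groups and between tanks cannot be told apart. Whole livers were sequenced, and therefore fewer cells of a type and less RNA per cell cannot be told apart.

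The depth was even, at 19315642 to 21399321 estimated counts per fish. Vitellogenin, the yolk protein precursor that the liver of egg-laying females secretes, took 29.3 to 74.5% of the counts of a female and at most 0.159% of those of a male, so every fish had the share of its labelled sex. The females with the lowest shares were NF-training replicate 3 (29.3%) and NF-control replicate 1 (45.8%). The 8 hepatocyte markers summed to between 21141 and 116610 CPM (counts scaled to a library of 1000000 with edgeR's TMM) in every fish, and 4 of 8 ovary and oocyte markers stayed under 10 counts in every fish. The carriers together held 0.254 to 0.510% of all counts in females and 0.466 to 0.788% in males, or 0.721 to 1.14% and 0.467 to 0.789% once vitellogenin was set aside.

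The family spanned several orders of magnitude in the liver, and 1 member stood far above the others. Levels between genes were compared in TPM (each fish scaled to a sum of 1000000, which accounts for transcript length). SLC25A5, an ADP/ATP carrier that exports the ATP made in the matrix, had 3875 ± 761 TPM (SD, n = 24) and made up 72.8% of the family's TPM on average, between 55.7 and 85.2% in single fish. SLC25A3, the phosphate carrier that supplies ATP synthase, followed with 412 ± 114 TPM.

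The next in order were SLC25A48 with 222 ± 251 TPM, SLC25A34 with 194 ± 110 TPM and SLC25A20 with 152 ± 59.9 TPM. SLC25A48 is described in human cells as the route by which choline enters mitochondria, SLC25A20 brings acylcarnitines into the matrix for fatty acid oxidation, and the substrate of SLC25A34 is not assigned. The sexes lay far apart in SLC25A48, with 22.8 ± 21.8 TPM in females and 421 ± 212 TPM in males (n = 12 each). SLC25A3 lay above SLC25A48 in 12 of 12 females but in 7 of 12 males, and SLC25A48 lay above SLC25A34 in 9 males and in 0 females.

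In all, 5 members had a mean of at least 100 TPM, 14 lay between 10 and 100 TPM, 22 between 1 and 10 TPM and 4 under 1 TPM. The second tier began with the pyrimidine nucleotide carrier SLC25A33 (56.7 ± 36.8 TPM), the 2-oxoglutarate/malate carrier SLC25A11 (54.9 ± 28.0 TPM), the basic amino acid carrier SLC25A29 (ENSDARG00000098849, 38.6 ± 19.3 TPM) and the citrate carrier SLC25A1 (31.2 ± 14.1 TPM). The lowest member was SLC25A37, a mitoferrin known for importing iron in developing red blood cells, with 0.337 ± 0.184 TPM, whereas its relative SLC25A28, the mitoferrin of other tissues, had 22.05 ± 6.87 TPM. Of the 44 neighbouring pairs in this order, only 2 differed in mean by more than the larger of their SDs, namely SLC25A5 above SLC25A3 and SLC25A20 above SLC25A33. The other neighbours in the order were closer than their spread.

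**Figure D1:**
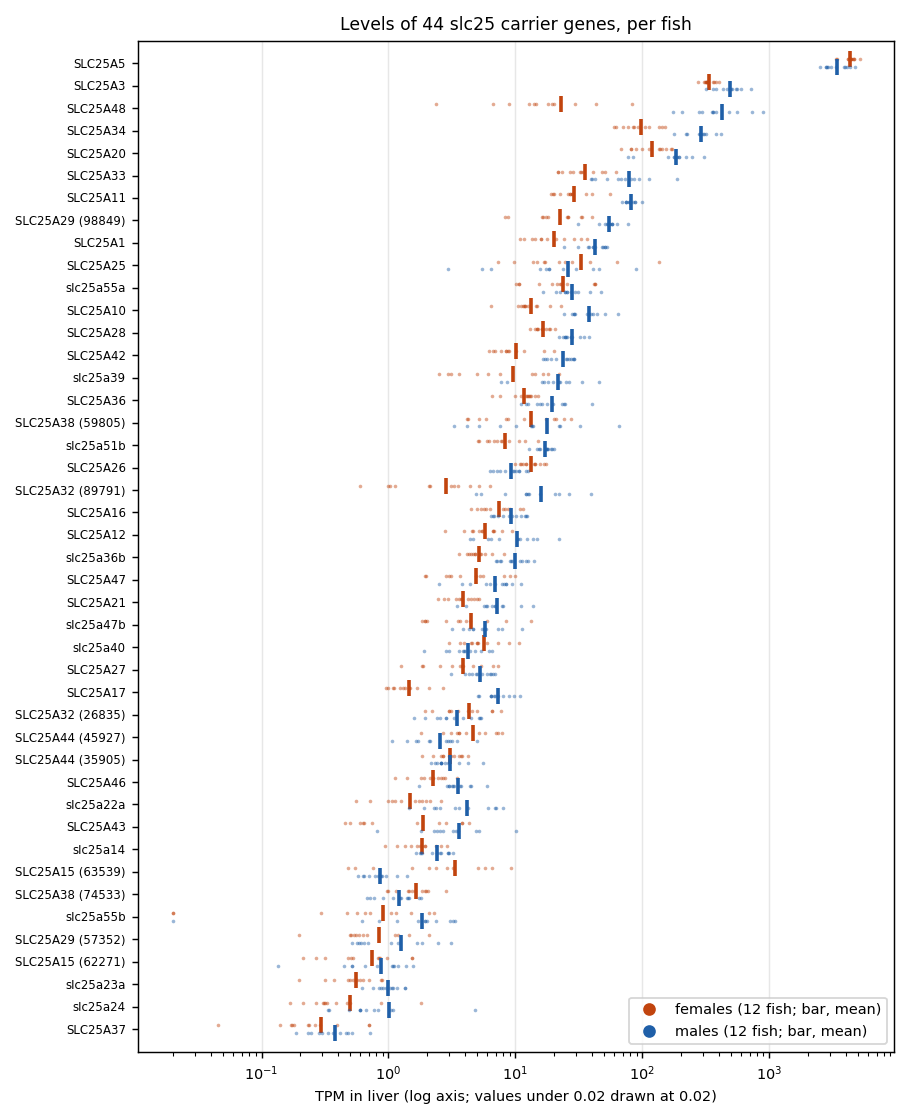
Level of 44 of the 45 slc25 members in the 24 livers in TPM on a log axis, with females and males as separate points, a bar at the mean of each sex and members ordered by their mean over all fish (values under 0.02 are drawn at 0.02). SLC25A5 stands apart at the top with a mean of 3875 TPM, and the points of the sexes separate most visibly for SLC25A48.

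Among the genes under the count minimum were second copies of well expressed carriers, a further aspartate/glutamate carrier, SLC25A13, and the muscle-type ADP/ATP carrier SLC25A4. The values of SLC25A4 came almost entirely from 1 fish: 76 of its 94 counts were in the male OF-training replicate 6, the fish in which the muscle markers were also highest (158 CPM). In that sample, muscle RNA and a hepatic level of SLC25A4 cannot be told apart. Members close to the minimum were slc25a24, with 10 counts or more in 14 fish (12 males and 2 females), and SLC25A37 with 15 fish.

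The carriers differed between the sexes in both directions, SLC25A48 and SLC25A17 being much higher in males and the abundant SLC25A5 higher in females. With group in the model, 21 of 45 members differed between males and females at an adjusted p under 0.05 (edgeR quasi-likelihood test, Benjamini-Hochberg adjustment over 16223 genes), which is 46.7% of the family against 45.8% of all genes tested. At an unadjusted p under 0.05 there were 25 (55.6% against 52.4%). Of the 21, 13 were higher in males (28.9% against 23.2% of all genes) and 8 lower (17.8% against 22.6%). The median log2 fold change of the members was 0.06, the same as over all genes, while single members ranged from -2.67 to 3.74. The family's shares thus lay near those of all genes.

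Scaling matters for these directions. Vitellogenin took a large share of the female counts, and its part in the shifts given here was not tested. Without TMM, by library size alone, the median of all genes moved to 1.44 and 6 of the 8 female-high members turned to the male side (SLC25A5, SLC25A26, slc25a40, SLC25A38, SLC25A44 ENSDARG00000035905 and SLC25A32 ENSDARG00000026835). Relative to that median, all 21 members had the direction given here. Subtracting the median re-centres the values much as TMM does, so this is not an independent check of the direction. In limma on log2(TPM + 1) the median of all genes was 0.36 and all 21 members had the same direction, but 18 of the 21 were still called. Those that were not were SLC25A32 ENSDARG00000026835 (-0.22), slc25a40 (-0.33) and SLC25A44 ENSDARG00000035905 (-0.02).

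**Figure D2:**
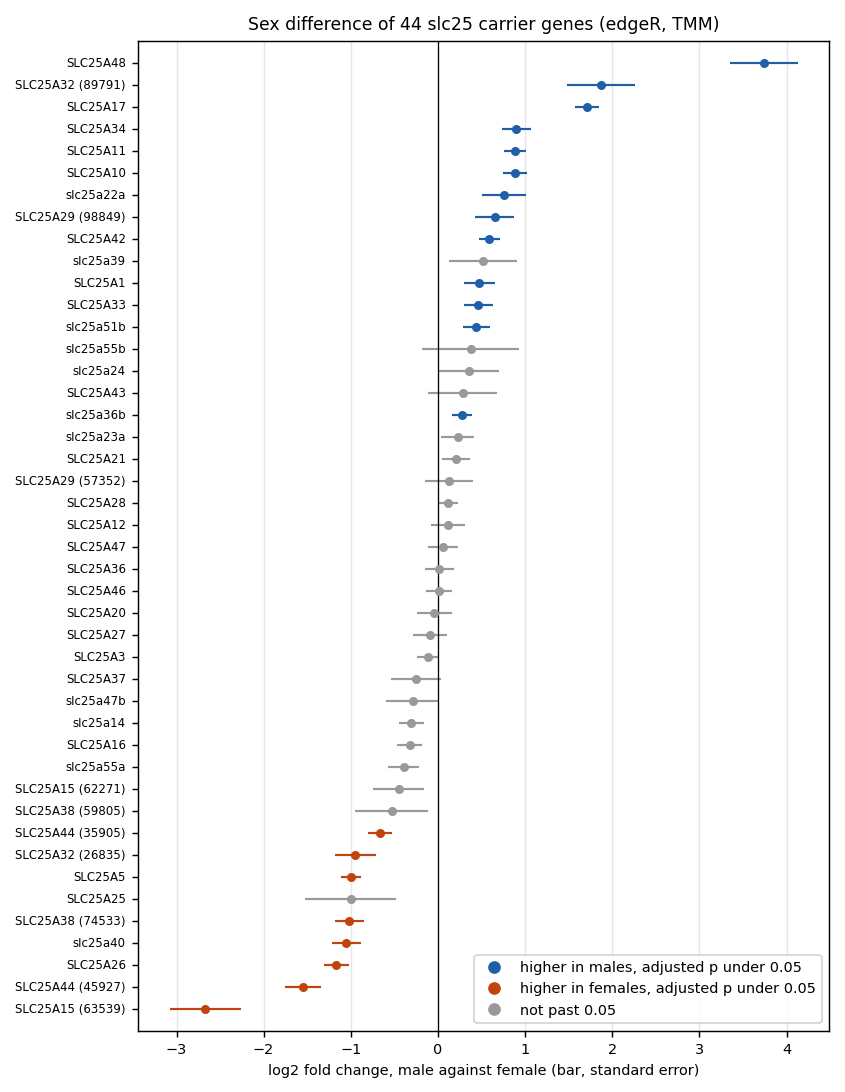
Log2 fold change of males over females for 44 of the 45 members, from edgeR on TMM-scaled counts, with bars of 1 standard error and members called at an adjusted p under 0.05 marked. The values run from -2.67 for SLC25A15 (ENSDARG00000063539) to 3.74 for SLC25A48, with 13 members called above 0 and 8 below, and by library size alone 6 of those 8 turned positive.

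The clearest male-high member was SLC25A48, the choline carrier. Its level lay between 2.51 and 63.1 CPM in females (median 19.6) and between 138 and 547 CPM in males (median 241), so that the lowest male was above the highest female. The difference was 3.74 ± 0.39 on the log2 scale (SE), a 13.4-fold higher level in males, with an adjusted p of 6.72e-08 in edgeR. It was called within each of the 4 groups, at 3.70 in NF-control, 4.06 in OF-control, 3.16 in NF-training and 4.04 in OF-training.

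SLC25A17, the peroxisomal carrier of coenzyme A, FAD and NAD, was the other member whose males all lay above all females in CPM. Females had 2.90 to 5.73 CPM (median 3.78) and males 8.64 to 19.8 CPM (median 13.4), with a log2 difference of 1.71 ± 0.14 (edgeR adjusted p = 1.04e-09). Complete separation of males above females was seen for 2 of 45 members, 4.44% against 2.1% of all genes, and of males below females for 1 member, slc25a40 (2.22% against 3.69%).

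Of the 4 carriers of citric acid cycle intermediates, 3 were higher in males, beside 23.2% of all genes. The classes used here are small, and their counts are a description with no test. SLC25A11, one of the carriers of the malate-aspartate shuttle, had 26.7 to 54.0 CPM in females (median 36.2) and 47.3 to 83.8 CPM in males (median 67.8). Of the 12 males, 11 lay above the highest female, and the difference was 0.88 ± 0.12 (edgeR adjusted p = 3.59e-06). The dicarboxylate carrier SLC25A10, which exchanges malate and succinate for phosphate, had 16.3 to 46.5 CPM in females (median 31.1) and 41.8 to 87.4 CPM in males (median 54.3), a difference of 0.88 ± 0.13 (edgeR adjusted p = 1.21e-05).

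The citrate carrier SLC25A1, which exports the carbon for fatty acid synthesis, differed by 0.47 ± 0.18 (edgeR adjusted p = 0.0349) and was less even. It was the 1 called member whose direction was not shared by all groups, with a log2 difference of -0.37 within NF-control. The oxoadipate carrier SLC25A21 had a difference of 0.21 (edgeR adjusted p = 0.295) and was not called.

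Of the 11 carriers of cofactors and nucleotides other than ADP and ATP, 6 were higher in males and 2 lower, beside 23.2% and 22.6% of all genes. Beside SLC25A17, SLC25A42, which imports coenzyme A, had a female median of 10.8 CPM (5.63 to 15.1) and a male median of 16.4 CPM (11.8 to 20.4), with overlapping ranges. Its difference was 0.59 ± 0.12 (edgeR adjusted p = 0.000365). The pyrimidine nucleotide carrier SLC25A33, its relative slc25a36b and the NAD carrier slc25a51b had smaller differences of 0.47, 0.28 and 0.44 (edgeR adjusted p = 0.023, 0.0474 and 0.0193).

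Within the same class, SLC25A26, which imports S-adenosylmethionine for methylation in the matrix, went the other way. Females had 7.90 to 19.5 CPM (median 12.5) and males 4.07 to 9.01 CPM (median 5.90), and 11 of 12 males lay below the lowest female. The difference was -1.17 ± 0.14 (edgeR adjusted p = 6.21e-07; 0.26 by library size alone), and it was called within each of the 4 groups.

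The 2 genes that share the symbol SLC25A32, a carrier of folate or FAD, moved in opposite directions. ENSDARG00000089791 had 1.93 to 20.3 CPM in females (median 7.30) and 9.28 to 75.6 CPM in males (median 26.2), a difference of 1.87 ± 0.39 (edgeR adjusted p = 0.00044), and 8 males lay above the highest female. ENSDARG00000026835 had 1.28 to 6.47 CPM in females (median 3.12) and 0.868 to 2.63 CPM in males (median 1.82), a difference of -0.95 ± 0.24 (edgeR adjusted p = 0.0021; 0.53 by library size alone). In TPM the first lay above the second in 16 of 24 fish. The gene names come from a symbol table, and how reads that fit both genes were divided was not tested.

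**Figure D3:**
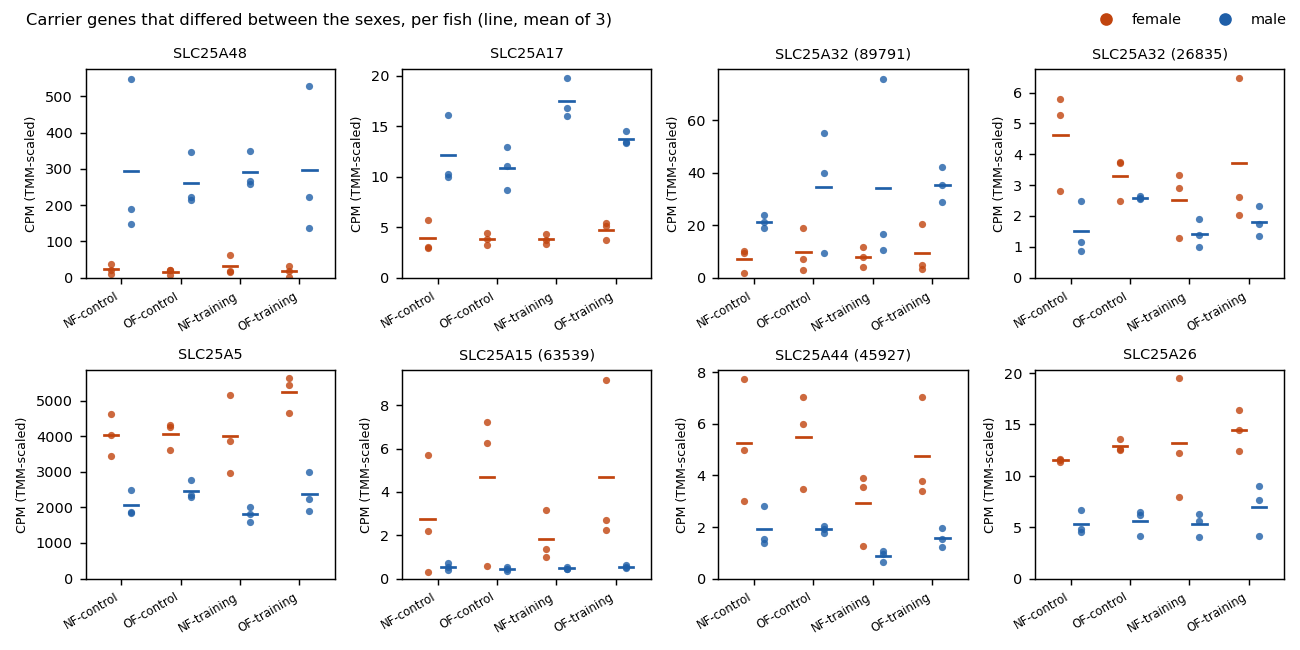
TMM-scaled CPM of selected sex-dependent members in each of the 24 livers by group, on linear axes from 0, with females and males as separate points and a line at the mean of 3 fish (shared symbols carry the last digits of the identifier). SLC25A48 and SLC25A17 show no overlap between the sexes, and SLC25A5 and SLC25A26 are higher in females on this scale (and turn to the male side by library size alone). The SLC25A32 genes go in opposite directions on this scale, whereas by library size alone both are higher in males.

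The most abundant carrier was higher in females. SLC25A5 had 2970 to 5651 CPM in females (median 4290) and 1576 to 2996 CPM in males (median 2126), with 11 of 12 males below the lowest female. The difference was -0.99 ± 0.12 (edgeR adjusted p = 3.02e-07; 0.45 by library size alone), and it was called within each of the 4 groups. Because SLC25A5 dominates the sum, the family summed to 5464 ± 901 CPM in females and 3656 ± 568 CPM in males (SD, n = 12 each), whereas without SLC25A5 the other 44 members summed to 1126 ± 166 CPM and 1476 ± 240 CPM. In TPM, SLC25A5 had 4319 ± 508 in females and 3431 ± 724 in males, whereas the family sum was 5231 ± 520 in females and 5419 ± 1005 in males and was thus not higher in females on that scale.

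The other carriers of phosphate and adenine nucleotides were not called. SLC25A3 had a median of 352 CPM in females and 346 CPM in males and a log2 difference of -0.12 ± 0.12 (edgeR adjusted p = 0.432), and SLC25A20 of the acylcarnitine route one of -0.04 ± 0.20 (edgeR adjusted p = 0.891). For both the sign depended on the processing. In TPM, SLC25A3 had 334 ± 35.5 in females and 491 ± 111 in males (SD, n = 12 each). SLC25A20 had 120 ± 35.8 and 184 ± 62.7 TPM, so both means were higher in males on that scale. SLC25A25, an ATP-Mg/phosphate carrier, varied widely, from 13.3 to 324 CPM in females and from 3.62 to 112 CPM in males, and its difference of -1.003 ± 0.52 (edgeR adjusted p = 0.122) was within that spread.

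Among the amino acid carriers, 4 of 12 were lower in males and 2 higher, beside 22.6% and 23.2% of all genes. SLC25A15 (ENSDARG00000063539), the ornithine/citrulline carrier that links the mitochondrial and cytosolic steps of the urea cycle, had 0.307 to 9.18 CPM in females (median 2.48) and 0.345 to 0.725 CPM in males (median 0.499). Males were uniformly low while females spread widely, with some females as low as males. The counts were low, at 6 to 95 in females and 13 to 27 in males, and 9 females had 10 counts or more. The difference was -2.67 ± 0.41 (edgeR adjusted p = 1.09e-05). Its partner of the same symbol, ENSDARG00000062271, had a difference of -0.45 (edgeR adjusted p = 0.216).

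Both genes named SLC25A44, a carrier of branched-chain amino acids, were lower in males. ENSDARG00000045927 had medians of 3.83 CPM in females and 1.53 CPM in males and a difference of -1.55 ± 0.20 (edgeR adjusted p = 1.44e-06), called in each of the 4 groups but not by library size alone (-0.05). ENSDARG00000035905 had medians of 6.84 and 4.01 CPM and a difference of -0.66 ± 0.14 (edgeR adjusted p = 0.000411; 0.77 by library size alone). The glycine carrier SLC25A38 (ENSDARG00000074533), needed for haem synthesis, had medians of 4.36 and 2.15 CPM and a difference of -1.02 ± 0.17 (edgeR adjusted p = 2.74e-05; 0.42 by library size alone).

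Higher in males were the glutamate carrier slc25a22a, with medians of 1.58 and 2.48 CPM in females and males and a difference of 0.76 ± 0.25 (edgeR adjusted p = 0.0166), and SLC25A29 (ENSDARG00000098849) with 0.65 ± 0.22 (edgeR adjusted p = 0.0186). The second gene named SLC25A29, ENSDARG00000057352, had a mean of 1.04 TPM and lay below the first in 24 of 24 fish, and its difference of 0.13 (edgeR adjusted p = 0.728) was not called.

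In the class of iron and glutathione, only slc25a40, a glutathione carrier, was called. It had 5.20 to 13.6 CPM in females (median 6.42) and 1.90 to 5.08 CPM in males (median 3.52), without overlap in CPM but with overlap in TPM. The difference was -1.05 ± 0.17 (edgeR adjusted p = 2.04e-05; 0.37 by library size alone). Among the 7 members with no assigned class, SLC25A34 was called. It had 24.7 to 76.8 CPM in females (median 37.6) and 42.6 to 109 CPM in males (median 84.7), a difference of 0.90 ± 0.16 (edgeR adjusted p = 8.54e-05).

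The remaining 24 members were not called by sex, and 9 of them had a difference under 0.2 in size. Close to the threshold were slc25a55a (-0.39, edgeR adjusted p = 0.0786), the coenzyme A carrier SLC25A16 (-0.32, edgeR adjusted p = 0.071) and slc25a14 of the uncoupling protein branch (-0.30, edgeR adjusted p = 0.0911). Near 0 on TMM-scaled counts lay SLC25A36 (0.02), the outer membrane member SLC25A46 (0.01), the aspartate/glutamate carrier SLC25A12 (0.11), the iron carrier SLC25A28 (0.12), SLC25A27 (-0.09) and SLC25A47 (0.06). Its relative slc25a47b (-0.29), the glutathione carrier slc25a39 (0.51), SLC25A43 (0.29), the ATP-Mg/phosphate carriers slc25a23a (0.22) and slc25a24 (0.36), the iron carrier SLC25A37 (-0.25), slc25a55b (0.38) and the first SLC25A38 gene, ENSDARG00000059805 (-0.53), had standard errors that left their direction unresolved. The members named as near 0 all had higher TPM means in males. SLC25A28 had 16.4 ± 2.17 TPM in females and 27.7 ± 4.82 TPM in males (SD, n = 12 each). On log2(TPM + 1) the median of all genes was itself at 0.36.

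Of the 21 called members, 20 had the same sign in all 4 groups. Within single groups, with 3 fish per sex, 10 members were called in NF-control (14.2% of all genes called), 11 in OF-control (20.6%), 8 in NF-training (10.1%) and 8 in OF-training (18.7%). The members called in every group were SLC25A48, SLC25A17, SLC25A26, SLC25A44 (ENSDARG00000045927) and SLC25A5, and 7 of the 21 were called in no single group. Whether the sex difference itself changed with training or overfeeding was tested as an interaction, which called 0 members in either case.

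**Figure D4:**
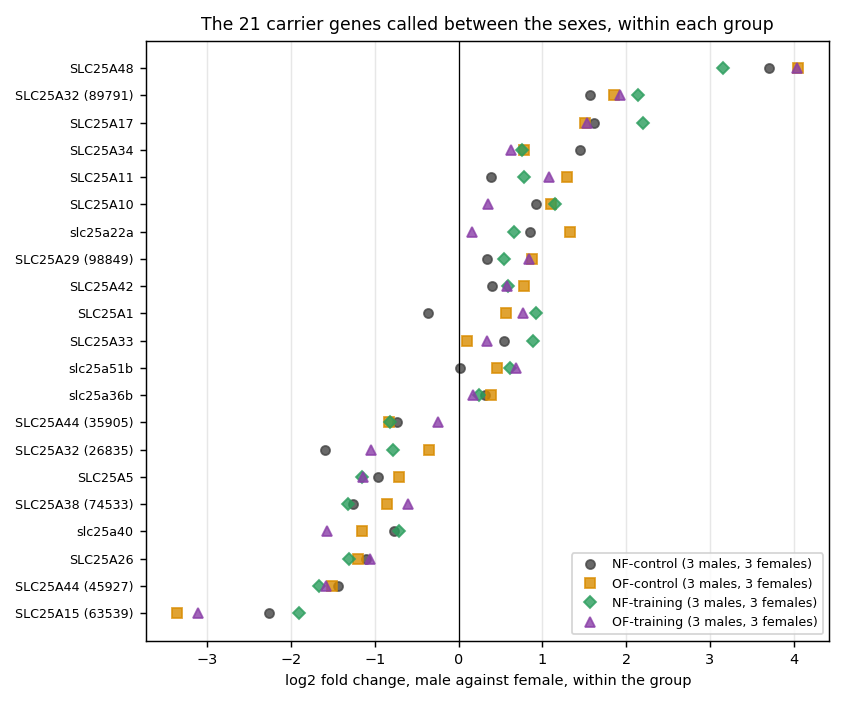
Log2 fold change of males over females within each of the 4 groups for the 21 members called by sex, from edgeR on TMM-scaled counts with 3 females and 3 males per group. The 4 values of a member lie on 1 side of 0 for 20 of the 21, the exception being SLC25A1 at -0.37 in NF-control.

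Markers of other cell types differed between the sexes too. Of the 8 hepatocyte markers, 5 were higher in males, and their sum lay at 21141 to 69291 CPM in females and 50250 to 116610 CPM in males. Erythrocyte markers, 3 of 5 of them higher in males, summed to 10.3 to 180 CPM in females and 44.2 to 297 CPM in males, whereas 0 of 8 exocrine pancreas markers and 0 of the 5 tested leukocyte markers were called. Of the 5 muscle markers 2 were tested and both were higher in males, with a median log2 difference of 5.05. The muscle list summed to 0 to 1.18 CPM in females (median 0.28) and 0.154 to 158 CPM in males (median 0.80). The male median was thus low, and the highest sum was that of OF-training replicate 6. The part of these cell types in the differences of the carriers was not tested. The 2 females with the lowest vitellogenin shares were also left out, an alternative chosen after the data were seen. In that fit 20 members were called in edgeR, 10 in each direction, beside 8180 of 16390 genes (4250 higher and 3930 lower in males). Of the 20, 18 were also called with all fish, and the others were lower in males and are not named here. SLC25A1 (adjusted p = 0.0688), SLC25A33 (adjusted p = 0.065) and slc25a36b (adjusted p = 0.138) were lost in edgeR. Leaving out single fish, slc25a36b was lost in 9 of 24 fits, SLC25A1 in 5 and SLC25A33 in 1 (without NF-control replicate 5).

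Genes that work beside the carriers were read in the same test, on TMM-scaled counts alone. Whether the female-high genes of these lists keep their direction by library size alone was not tested. Carrier proteins reach the inner membrane through the TIM22 pathway, and of its 10 genes 5 were lower in males and 0 higher, with a median of -0.35. They were TIMM8B (-0.77), TIMM29 (-0.67), TIMM22 (-0.62), the acylglycerol kinase AGK (-0.52) and TIMM9 (-0.39). In the malate-aspartate shuttle, 4 of 5 enzyme genes were higher in males, GOT1 (2.12), GOT2 (1.01), MDH1 (0.95) and got2b (0.68), the same direction as SLC25A11, while MDH2 (-0.02) was not called. The aspartate/glutamate carrier SLC25A12, which also serves this shuttle, was not called either (0.11, edgeR adjusted p = 0.664). In the carnitine shuttle, which feeds SLC25A20, 5 of 7 genes were higher in males and 2 lower.

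Other mitochondrial transporter genes, whose symbols do not begin with slc25a, were more often higher than lower in males, with 8 of 15 higher and 2 lower. Those higher included the pyruvate carrier subunits MPC1 (0.74) and MPC2 (ENSDARG00000024478, 1.98), and the uncoupling proteins UCP1 (1.41) and UCP2 (1.42). The 2 lower genes are not named here. The uncoupling proteins belong to the carrier family under another name and were left out of the members by the symbol rule alone. Of 5 genes on the route from citrate to fatty acids, only citrate synthase CS (-0.76) was called, on the female side. Of the 7 urea cycle genes only 2 passed the expression filter, and ASL (0.99) was higher in males. As these lists are short and were drawn up with earlier results known, their counts are a description beside the 23.2% higher and 22.6% lower of all genes.

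No carrier passed the threshold of edgeR for training or overfeeding, and the members with the smallest p were SLC25A33 and a minor SLC25A29 gene. For training of normally fed fish, 0 of 45 members were called in edgeR (0.173% of all genes called), with 6 members at an unadjusted p under 0.05, 13.3% against 11.1% of all genes. For overfeeding of untrained fish 0 of 45 were called (0% of all genes called), with 10 members at an unadjusted p under 0.05, 22.2% against 11.3%. For training of overfed fish 0 of 45 were called (0.00616% of all genes called), with 3 members at an unadjusted p under 0.05, 6.67% against 5.26%. The interaction of training and feeding called 0 members and 0% of all genes, with 1 member at an unadjusted p under 0.05 (2.22% against 4.47%). DESeq2 called 1 member in NF-training against NF-control, beside 160 of all 16223 genes. It called 1 member in OF-control against NF-control, beside 77 of 16223. In limma voom 0 members were called in each, beside 39 and 0 of 16223 genes.

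The member called by DESeq2 under overfeeding was SLC25A33, the pyrimidine nucleotide carrier. NF-control females had 61.9, 72.1 and 52.1 CPM and NF-control males 46.999, 142 and 81.8 CPM. OF-control females had 28.2, 32.9 and 32.6 CPM and OF-control males 31.3, 38.5 and 30.6 CPM. All OF-control fish thus lay below all NF-control fish, the only member of 45 to do so (2.22% against 0.166% of all genes). The difference was -1.20 ± 0.23 with an unadjusted p of 3.19e-05, and its adjusted p of 0.0863 in edgeR missed the threshold.

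The call for SLC25A33 depended on the method. It passed in DESeq2 (adjusted p = 0.00093), with a block for the replicate number (edgeR adjusted p = 0.0411) and without NF-control replicate 4 (edgeR adjusted p = 0.033), and its adjusted p ran from 0.00093 to 0.797 over 39 alternatives, with the same sign in all of them. OF-training fish had 56.1 ± 15.2 CPM and OF-control fish 32.3 ± 3.45 CPM (SD, n = 6 each), a difference of 0.78 ± 0.23 that was not called (edgeR adjusted p = 0.795). NF-training fish, with 59.08 ± 23.6 CPM, overlapped the 76.1 ± 34.5 CPM of NF-control, and the interaction of training and feeding was 1.17 ± 0.32 (edgeR adjusted p = 0.999).

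The member called by DESeq2 under training was the minor SLC25A29 gene, ENSDARG00000057352. NF-control females had 1.64, 3.33 and 1.73 CPM and NF-control males 1.23, 2.12 and 1.05 CPM. NF-training females had 0.892, 0.929 and 0.213 CPM and NF-training males 0.613, 0.596 and 0.598 CPM. All NF-training fish were therefore below all NF-control fish, again 1 of 45 members (2.22% against 0.339% of all genes). The gene had 10 counts or more in only 17 of 24 fish, 12 males and 5 females. Females had 5 to 32 counts, so their part of the separation rests on low counts. The difference was -1.58 ± 0.39 (unadjusted p = 0.000499, edgeR adjusted p = 0.112), with adjusted p between 0.0137 and 0.595 over 39 alternatives. In overfed fish the training difference of this gene was -0.76 ± 0.38 (edgeR adjusted p = 0.916).

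SLC25A34 had positive training differences under both diets, of 0.59 ± 0.23 in normally fed fish (edgeR adjusted p = 0.343) and 0.71 ± 0.23 in overfed fish (edgeR adjusted p = 0.885), neither of them called. Its values lay at 24.7 to 100.8 CPM in NF-control, 28.1 to 109 CPM in NF-training, 31.4 to 74.7 CPM in OF-control and 52.5 to 98.5 CPM in OF-training, so that the groups overlapped under both diets and the females lay below the males in each. Within a sex, overfed females had 31.4 to 41.3 CPM untrained and 52.5 to 69.8 CPM trained. Overfed males had 42.6 to 74.7 CPM untrained and 88.3 to 98.5 CPM trained, without overlap in either sex. In normally fed fish, trained and untrained values overlapped in both sexes. Each of these ranges rests on few fish. The share of all genes that separate like this within a sex was not counted, so no conclusion is drawn from the separation. Under overfeeding, the oxoadipate carrier SLC25A21 had 3.53 to 5.79 CPM in NF-control and 3.72 to 12.7 CPM in OF-control, a difference of 0.76 ± 0.22 (edgeR adjusted p = 0.237), and its highest values were in OF-control males.

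**Figure D5:**
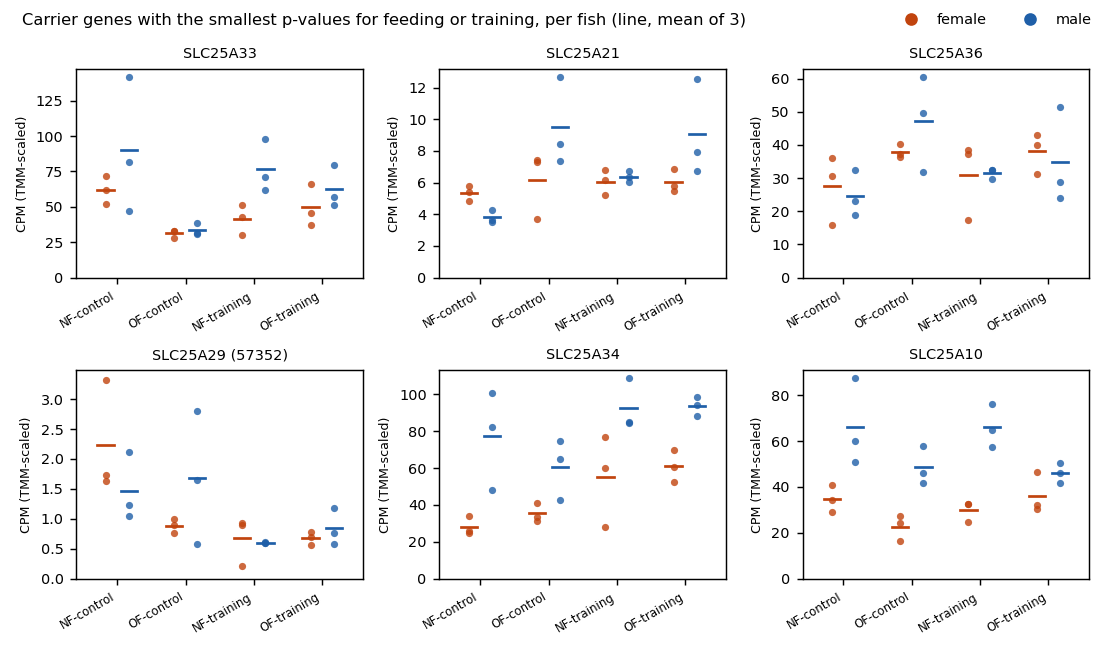
TMM-scaled CPM of selected members in each of the 24 livers by group, on linear axes from 0, with females and males as separate points and a line at the mean of 3 fish. For SLC25A33 the 6 OF-control fish lie between 28.2 and 38.5 CPM, below every NF-control fish, and for SLC25A29 (ENSDARG00000057352) every NF-training fish lies below every NF-control fish, although neither difference passed the adjusted threshold in edgeR.

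Other members with low unadjusted p under overfeeding were SLC25A36, a pyrimidine nucleotide carrier, at 0.71 ± 0.24 (edgeR adjusted p = 0.292), the dicarboxylate carrier SLC25A10 at -0.52 ± 0.19 (edgeR adjusted p = 0.326) and the acylcarnitine carrier SLC25A20 at 0.74 ± 0.28 (edgeR adjusted p = 0.352). SLC25A20 had 88.8 ± 31.7 CPM in NF-control and 149 ± 28.2 CPM in OF-control (SD, n = 6 each), with ranges that overlapped. Under training of normally fed fish, SLC25A44 (ENSDARG00000045927) had a difference of -0.98 ± 0.28 (edgeR adjusted p = 0.187). Training of overfed fish gave -1.19 ± 0.56 for SLC25A38 (ENSDARG00000059805, edgeR adjusted p = 0.916). The comparisons against NF-control share its 6 fish, and those against OF-control share theirs.

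The abundant carriers overlapped between groups. SLC25A5 had 3053 ± 1161 CPM in NF-control, 3270 ± 922 CPM in OF-control, 2902 ± 1400 CPM in NF-training and 3812 ± 1647 CPM in OF-training (SD, n = 6 each), with females above males in each group. SLC25A3 had 317 ± 34.9, 366 ± 53.4, 320 ± 98.1 and 411 ± 43.6 CPM in the same order. No difference between groups was called for either.

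Training and overfeeding were also compared between the sexes. The interaction of training and sex in normally fed fish called 0 members (0% of all genes), with 1 member at an unadjusted p under 0.05 (2.22% against 7.47% of all genes). It was the citrate carrier SLC25A1, with 44.6, 55.9 and 63.7 CPM in NF-control females and 37.1, 27.9 and 13.997 CPM in NF-training females, while males had 43.5, 54.5 and 29.1 CPM in NF-control and 46.2, 60.5 and 42.7 CPM in NF-training. Trained females lay below untrained females and the males overlapped, but the interaction of 1.29 ± 0.44 had an adjusted p of 0.552 in edgeR. The share of all genes whose females separate like this was not counted either. The interaction of overfeeding and sex in untrained fish called 0 members (0% of all genes), with 5 at an unadjusted p under 0.05 (11.1% against 5.57%), led by SLC25A11 with 0.90 ± 0.30 (edgeR adjusted p = 0.776).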

How the data were processed

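Liver RNA of 24 fish was sequenced on a BGISEQ platform. Per the methods and the submitters' processing notes, the authors trimmed reads with Trim Galore 0.6.4, used the zebrafish build GRCz11 and quantified with kallisto (0.4.6 in the notes). They deposited estimated counts per gene and TPM, which is scaled for length so that each fish adds up to 1000000. The step from transcripts to genes is not given in the sources used here. Symbols came from a table of gene names. Groups, sex and replicate numbers came from the labels.

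Estimated counts were rounded, genes kept with filterByExpr of edgeR by group (16223 genes) and libraries scaled with TMM. The TMM factors lay at 0.439 to 1.36 in females and 1.46 to 2.16 in males. The quasi-likelihood test of edgeR 4.0.16 (R 4.3.3) used group and sex over all 24 fish, and the 8 cells of group and sex for within-group and sex interaction contrasts. P-values were adjusted over all genes by the Benjamini-Hochberg method at 0.05. The standard error is the log2 fold change divided by the square root of F. P-values set a difference against the spread between these fish. For training and overfeeding, that spread need not cover differences between tanks. No pair of fish had identical values (0 pairs).

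The members and the lists were chosen with earlier results of these data known. Members named with full values were the 8 with the smallest adjusted p in each direction by sex, the 5 with the highest TPM, the 2 higher and 2 lower with the smallest unadjusted p for each treatment and the first of each interaction. Other members were named after their values were seen. The values of 1 member are not reported here, and it is counted in all totals. Alternatives were DESeq2 1.42.0, limma 3.58.1 (voom, and log2 TPM with pseudocounts of 1 and 0.1), library size alone, vitellogenin left out, 2 other filters, cell means, a replicate block, single fish left out, and (added after the data were seen) 2 females left out. The steps were tested on simulated data, in which all fish shared a mean profile apart from a small set of changed genes. The vitellogenin share of females and the broad sex difference were not simulated. That test therefore does not bear on how scaling affects the direction of the sex differences. No sequences or coordinates were used here.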

Additional observations from a re-analysis of the deposited data

Results flagged for a closer look

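Outlying fish were sought on log2 CPM in each group of 6 fish for 24 members, 96 sets in all. The gap of the highest or lowest fish to its neighbour, relative to the range, was compared with Dixon's limit. The flags belong to that log scale, whereas the values below are plain CPM. A fish lay past the limit in 4 of the 96 sets, where chance gives about 5% of sets drawn from 1 distribution. Each set holds 3 females and 3 males, so this rate does not apply to members that differ by sex. In NF-control, the female replicate 2 was lowest for SLC25A11, at 27.04 CPM with the nearest fish at 44.7 CPM. The same female was lowest for SLC25A32 (ENSDARG00000089791), at 1.93 CPM with the nearest fish at 9.32 CPM. In NF-training, the female replicate 3, whose vitellogenin share of 29.3% was the lowest among females, was lowest for SLC25A29 (ENSDARG00000057352), at 0.213 CPM with the nearest fish at 0.596 CPM. It was also lowest for SLC25A36, at 17.4 CPM with the nearest fish at 29.8 CPM. The cause of these values was not tested.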

How the results depend on the processing

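For sex, 21 members were called in DESeq2, limma voom, without vitellogenin and under both other filters, and 19 to 22 with single fish left out. All genes called were 7761 of 16223 in DESeq2, 7124 of 16223 in voom and 7505 of 16747 without vitellogenin. They were 7764 of 28055 with no low count filter and 7539 of 15450 with a mean of at least 10 counts. With single fish left out they ran from 7011 to 8150. By library size alone 39 were called and on TPM 34 with a pseudocount of 1 and 34 with 0.1, as the median of all genes moved to 1.44, 0.36 and 0.65. Of all 16223 genes, these settings called 14428, 11324 and 11617. Of the 21, 14 were still called in their direction by library size alone and 18 on TPM, where SLC25A32 (ENSDARG00000026835), slc25a40 and SLC25A44 (ENSDARG00000035905) were lost. Within single groups of 3 fish per sex the calls were 10 in NF-control, 8 in NF-training, 11 in OF-control and 8 in OF-training. Of all genes, 14.2, 10.1, 20.6 and 18.7% were called in the same order. By library size alone the log2 difference turned positive for SLC25A5 (0.45), SLC25A26 (0.26), slc25a40 (0.37), SLC25A38 (0.42), SLC25A44 (0.77), SLC25A32 (0.53), SLC25A3 (1.33) and SLC25A20 (1.45), the SLC25A38, SLC25A44 and SLC25A32 genes being those named in the results as lower in males. The uncalled SLC25A3 also turned positive on TPM (0.53 with either pseudocount), with a replicate block (0.0041) and within OF-control (0.24), and SLC25A20 without a filter (0.025), with a mean of at least 10 counts (0.028), on TPM (0.59 with either pseudocount), within NF-control (0.25) and within OF-control (0.10). With single fish left out, SLC25A3 ran from -0.16 to 0.0049 and SLC25A20 from -0.15 to 0.13.

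For training of normally fed fish, 1 member was called in DESeq2, 1 on TPM + 1 and 1 on TPM + 0.1, and for overfeeding 1 in DESeq2, 1 with a replicate block and 1 without NF-control replicate 4, so that leaving out single fish gave 0 to 1. Of all 16223 genes, the training settings called 160, 74 and 60. For overfeeding, all genes called were 77 in DESeq2, 2 with the block and 2 without NF-control replicate 4. The cause of these changes was not tested. Replicate numbers name different fish. Fish with the same number in different groups correlated between -0.23 and 0.34 (median -0.00095 over 36 pairs). Those with different numbers correlated between -0.55 and 0.56 (median -0.017 over 180 pairs). Of 24 fish, 6 correlated best with their own number. How many would do so by chance was not computed, so no conclusion is drawn from that count. With the number as a block, 18 members were called for sex, all of them among the 21, beside 6555 of all 16223 genes. Number and sex were nearly confounded, because only in OF-control were the numbers of females and males swapped. The blocked sex difference therefore rests on that swap. The block could not be fitted for overfeeding by sex, where the same swap leaves number and contrast confounded. Estimated counts of a few per fish limit the lowest members, and 3 fish per cell limit the sex interactions.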
